A study of Mus musculus with 8 samples.

Results

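The 10 genes described here encode glutathione transferases outside the alpha and mu classes, and they were taken by symbol from the 55450 genes in the count files. They are the pi-class genes Gstp1 and Gstp2, the theta-class genes Gstt1, Gstt2 and Gstt3, Gstz1 of the zeta class, Gsto1 of the omega class, Gstk1 of the kappa class, and the microsomal transferases Mgst1 and Mgst3. All 10 had enough reads to be tested, among 15468 genes tested in all.

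Glutathione transferases join the tripeptide glutathione to reactive, fat-soluble compounds, which the cell then exports and breaks down to mercapturates. The soluble classes share a fold, the kappa enzyme is found in mitochondria and peroxisomes, and the microsomal enzymes are an unrelated family set in membranes. In mouse liver the pi-class enzyme is abundant in hepatocytes, which is not so in the human liver. Selenite itself reacts with glutathione, the substrate that all these enzymes share.

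RNA was sequenced from primary hepatocytes of C57BL/6 mice at post-natal week 8. LSKO cells carried Alb-cre(+/+) with the floxed allele Slc39a8(F/F), so that the albumin promoter drives the deletion of the gene of the metal and selenite transporter ZIP8 in liver cells. LSKO cells received manganese chloride, ferrous chloride, sodium selenite or zinc chloride at 2 µM for 24 h, with 1 library each, and 2 LSKO libraries were untreated. The 2 untreated WT libraries came from Slc39a8(F/F) mice, whose label names no Cre, so knockout and Cre cannot be told apart. All cells were kept in serum-free medium with dexamethasone, a glucocorticoid that itself acts on liver genes. No label says whether replicates came from separate mice, and p-values therefore measure only the spread between these libraries, which may be technical.

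The libraries held 19943899 to 27731054 reads in genes. Slc39a8 had 75, 47, 30 and 45 reads with manganese, iron, selenite and zinc, against 185 and 51 in untreated LSKO cells and 367 and 356 in WT cells. LSKO replicate 1 therefore kept more of the transcript than any other LSKO library. The log2 fold change between untreated LSKO and WT was -1.52 (SE 0.443, edgeR adjusted p = 0.0426), -2.88 without LSKO replicate 1 and -0.78 without LSKO replicate 2. Without WT replicate 1 or 2 the adjusted p was 0.18 and 0.254. The libraries also split by their read statistics. Unaligned reads made up 8.79% of the manganese library and 9.44% to 10.0% of the untreated LSKO libraries, against 4.12% to 4.94% of the iron, selenite, zinc and WT libraries. The manganese library stood further apart, with 72.2% of its reads in genes and 4.48% outside any gene, where the others had 39.3% to 42.1% and 42.3% to 45.6%. Hence iron, selenite and zinc against untreated LSKO, and untreated LSKO against WT, each cross the split, and metal or genotype cannot be told apart from it there. Selenite against iron and zinc, and these 3 metals against WT, lie on 1 side of it. All 4 metals are compared with the same untreated LSKO libraries.

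Levels are given as normalized CPM, CPM being the usual depth-scaled read count of a gene, here with the TMM factor of each library. Hepatocyte markers had a summed level over 8 genes of 51400 normalized CPM with selenite and 32090 to 43384 with the other metals. The sums were 30502 and 38286 in untreated LSKO cells and 22675 and 21695 in WT cells. Most of each sum was Alb, at 43251 with selenite and 18598.9 and 17689.5 in WT cells. Other listed genes were far lower, such as Cps1 at 21.3 and 19.3 in WT cells. Sums of the other marker lists reached at most 88.0 normalized CPM over 6 cholangiocyte genes, 489 over 9 macrophage genes, 231 over 7 sinusoidal endothelial genes and 44.6 over 8 stellate and fibroblast genes. Krt7 and Cftr of the bile duct and Timd4 of Kupffer cells were at 0 in at least 1 library. Endothelial and stellate sums were lowest with iron, at 92.2 and 18.0 normalized CPM, against 139 to 178 and 39.6 to 42.5 in untreated LSKO cells. In such bulk samples fewer cells of a type and less RNA per cell cannot be told apart.

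The promoters below belong to the 4 genes that were called higher with selenite. Each is the run of 250 bases before the RefSeq start site on GRCm38.p6, given from 5′ to 3′ on the gene's own strand. Capitals mark matches to TGAGTCA, the AP-1 letters, and to TGACNNNGC, a form of the antioxidant response element. Either one was searched on both strands.
Gstp1, chr19:4037913-4038162, minus strand: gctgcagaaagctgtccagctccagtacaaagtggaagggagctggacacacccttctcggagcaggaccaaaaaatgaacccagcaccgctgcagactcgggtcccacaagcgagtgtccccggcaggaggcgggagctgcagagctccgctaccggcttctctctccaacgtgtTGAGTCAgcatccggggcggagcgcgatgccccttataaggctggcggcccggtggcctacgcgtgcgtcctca
Gstp2, chr19:4042222-4042471, minus strand: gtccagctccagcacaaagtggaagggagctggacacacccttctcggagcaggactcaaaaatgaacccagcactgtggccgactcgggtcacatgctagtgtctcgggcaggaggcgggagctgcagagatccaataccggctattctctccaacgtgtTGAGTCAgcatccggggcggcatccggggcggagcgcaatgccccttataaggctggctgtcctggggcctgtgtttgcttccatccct
Mgst1, chr6:138140277-138140526, plus strand: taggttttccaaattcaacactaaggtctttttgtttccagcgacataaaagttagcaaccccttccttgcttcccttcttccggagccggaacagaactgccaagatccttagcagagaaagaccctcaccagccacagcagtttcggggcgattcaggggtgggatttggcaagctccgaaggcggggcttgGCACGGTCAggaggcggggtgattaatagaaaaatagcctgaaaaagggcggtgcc
Mgst3, chr1:167393842-167394091, minus strand: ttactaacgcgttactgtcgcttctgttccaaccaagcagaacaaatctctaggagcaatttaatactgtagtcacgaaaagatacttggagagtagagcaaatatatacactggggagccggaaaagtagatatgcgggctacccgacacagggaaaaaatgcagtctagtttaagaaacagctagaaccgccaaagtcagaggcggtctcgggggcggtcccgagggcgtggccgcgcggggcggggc

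The pi promoters were near copies, identical at 88.1% of aligned positions. Each held TGAGTCA, 74 bases before the start in Gstp1 and 89 bases before it in Gstp2. In both, GC follows TGAGTCA, and these letters miss TGACNNNGC only by a G in place of the C of TGAC. Each also held the TATA letters TATAA nearer the start, at 40 and 43 bases. The Mgst1 window had TGACNNNGC on its minus strand 56 bases before the start, and the Mgst3 window had neither set of capitals. RefSeq gives Mgst1 a further start, whose window had neither as well. Among 32851 mouse promoters of this length, 4.46% held TGAGTCA, 10.2% held TGACNNNGC and 22.8% held TATAA. The AP-1 letters were searched after the sequences had been read. Of the other members with a RefSeq promoter, Gstt1, Gstt3, Gstz1, Gsto1 and Gstk1, none held TGACNNNGC or TGAGTCA. A match of letters is a description of the window and not a measured site.

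The genes lie on 5 chromosomes of GRCm38, in GENCODE coordinates. Gstt3 (75774115 to 75781414), Gstt1 (75783813 to 75798584) and Gstt2 (75831114 to 75837424) form a cluster on chromosome 10. Gstk1 (42245935 to 42250447) and Mgst1 (138140316 to 138156755) are on chromosome 6, Mgst3 (167371966 to 167393841) is on chromosome 1, Gstz1 is on chromosome 12, and Gsto1 (47854970 to 47864790) shares chromosome 19 with the pi genes. Gstt3 overlaps Gm20441 on the same strand over 524 bases, and Gm20441 had 0 reads in every library.

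Per kilobase of exon, on the scale of normalized CPM, Gstp1 had the highest mean level over the 8 libraries at 499, or 49.2% of the summed level of the 10 genes. Mgst1 followed at 361, Gsto1 at 79.2, Gstt1 at 29.4 and Gstp2 at 15.3. Gstk1, Mgst3 and Gstz1 lay close together at 9.39, 9.15 and 8.40, and their ranges over the libraries overlapped. Exon length counts all annotated exons of a gene, 5088 bases for Gstz1, whose longest coding transcript has 1656. For Mgst3 both are 1097, so the place of Gstz1 depends on the length used. Gstt2 at 3.76 and Gstt3 at 0.633 were lowest. The first 2 genes thus held most of the transferase RNA of this set, and Gstt3 rested on 25 to 82 reads a library.

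**Figure D1:**
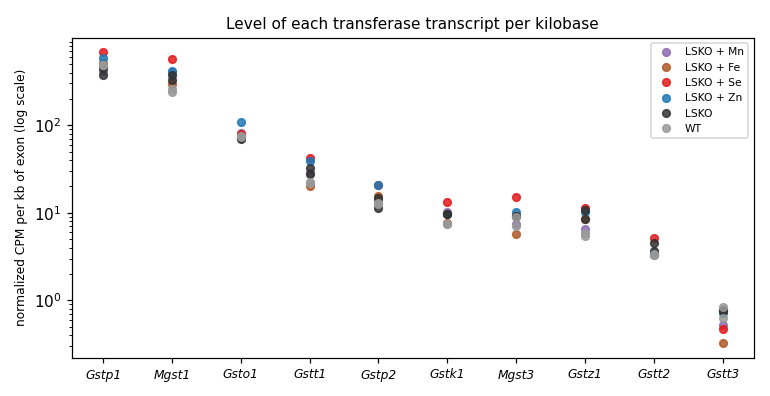
Level of each transferase transcript per kilobase of exon (normalized CPM per kb, log scale), 1 point per library, coloured by group. Gstp1 averages 499 and Mgst1 361, while Gstt3 averages 0.633, and the order of the lower genes Gstk1, Mgst3 and Gstz1 changes between libraries.

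Selenite against untreated LSKO asked how added selenite changed the transcripts. Gstp1, Gstp2, Mgst1 and Mgst3 rose with selenite, by between 1.57-fold and 1.66-fold over untreated LSKO cells. A call needs an adjusted p under 0.05 over all genes tested and a log2 fold change beyond 0.5. Of the 10 members 4 were called higher, and 7.89% of all genes tested were called higher. None of the 10 was called lower by edgeR or by DESeq2, 0 had an unadjusted p under 0.05 in that direction, and 9.67% of all genes were called lower. Their median log2 fold change was 0.48, where that of all genes tested was -0.013. Of the marker lists, 3 of 8 hepatocyte genes (Alb, Ttr and Serpina1c) and 3 of 8 macrophage genes tested (Adgre1, Marco and Lyz2) were also called higher with selenite, and 4 of 7 sinusoidal endothelial genes were called lower. Their part in the transferase values was not tested.

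Gstp1 encodes the main pi-class enzyme, which conjugates electrophiles and also binds the stress kinase JNK. It had 1053 normalized CPM with selenite, against 586 and 697 in untreated LSKO cells, a log2 fold change of 0.71 (SE 0.107, adjusted p = 0.00132). In the other libraries it had 646 with manganese, 795 with iron and 907 with zinc, and 745 and 750 in WT cells. Selenite was the highest of the 8 libraries, zinc and iron came next, and untreated LSKO replicate 1 was the lowest. Manganese lay between the 2 untreated LSKO libraries.

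Gstp2, the neighbouring pi gene, had 22.9 normalized CPM with selenite, against 12.8 and 16.3 in untreated LSKO cells (log2 fold change 0.65, SE 0.163, adjusted p = 0.0158). It had 15.4 with manganese, 17.3 with iron, 23.1 with zinc, and 14.0 and 14.3 in WT cells, so that selenite and zinc lay together above all other libraries. The Gstp2 call was lost without LSKO replicate 1 (0.44, adjusted p = 0.0837) and without WT replicate 1 or 2 (0.61 and 0.60, adjusted p = 0.0538 and 0.0529). DESeq2 did not call it either, with a log2 fold change of 0.63 and an adjusted p of 0.0946.

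The pi genes lie side by side on chromosome 19 of GRCm38, Gstp1 from 4035407 to 4037985 and Gstp2 from 4040285 to 4046023. Their longest coding transcripts were identical at 95.7% of aligned positions. Of 150-base windows along them, 41.8% in Gstp1 and 49.4% in Gstp2 occurred again in the other gene or in the pseudogene Gstp-ps, and their counts are uncertain to that extent. Gstp-ps followed the read statistics, with 84.3 normalized CPM with manganese and 83.7 and 85.7 in untreated LSKO cells, against 51.2, 58.9 and 51.6 with iron, selenite and zinc and 47.3 and 40.3 in WT cells. It was called lower with selenite (-0.52, SE 0.115, adjusted p = 0.00833), where Gstp1 and Gstp2 rose. The pseudogene's part in the pi results was not tested. Gstp1 had 39.3 times the reads of Gstp2 with zinc and 41.8 to 46.1 times with the other metals, against 45.9 and 42.7 times in untreated LSKO cells and 53.1 and 52.5 times in WT cells.

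Mgst1 encodes the membrane transferase of the endoplasmic reticulum and the outer mitochondrial membrane, which also reduces lipid hydroperoxides. It had 1154 normalized CPM with selenite, against 657 and 754 in untreated LSKO cells, a log2 fold change of 0.71 (SE 0.104, adjusted p = 0.00115). Manganese, iron and zinc gave 807, 598 and 839, and the WT libraries had 519 and 480. All LSKO libraries, treated or not, lay above both WT libraries, and selenite lay above all the rest. The selenite calls of Gstp1 and Mgst1 held with DESeq2 and with each replicate left out in turn, at 0.55 to 0.81 for Gstp1 and 0.56 to 0.78 for Mgst1.

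Mgst3, a related membrane enzyme with peroxidase activity, had 16.7 normalized CPM with selenite, against 10.1 and 10.0 in untreated LSKO cells (log2 fold change 0.73, SE 0.185, adjusted p = 0.0168). It had 8.21 with manganese, 6.27 with iron, 11.2 with zinc, and 9.91 and 7.80 in WT cells. Selenite gave the highest level and iron the lowest. DESeq2 did not call the rise with selenite (0.71, adjusted p = 0.129).

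Gstt1 and Gstk1 had an adjusted p under 0.05 with selenite but a log2 fold change under the threshold of 0.5, at 0.49 (SE 0.119, adjusted p = 0.0138) and 0.46 (SE 0.146, adjusted p = 0.0388). Without LSKO replicate 2 Gstt1 was called at 0.59. Gstt2, Gstz1 and Gsto1 had log2 fold changes of 0.32, 0.21 and 0.16 and Gstt3 of -0.70, none of them past the test.

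**Figure D2:**
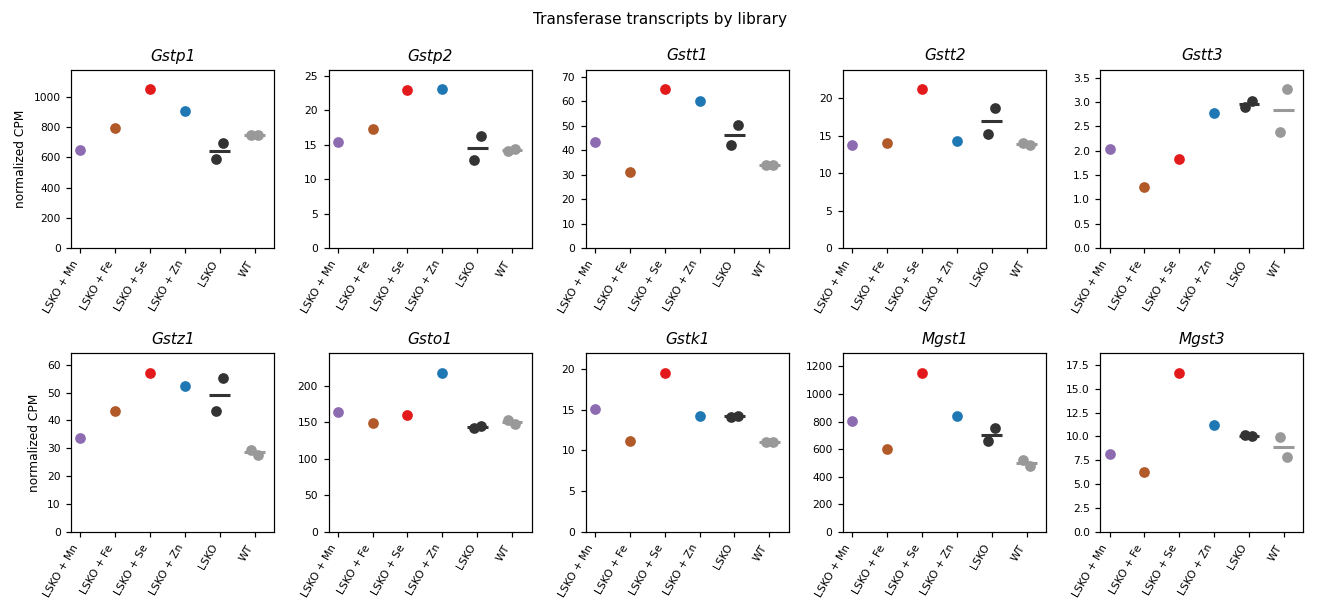
Normalized CPM of the 10 transferase genes (linear axes from 0), 1 point per library, with a line at the mean of the groups of 2 libraries. Selenite is the highest library for Gstp1, Gstt1, Gstt2, Gstz1, Gstk1, Mgst1 and Mgst3, and zinc for Gsto1 (218), while Gstz1 is lowest in WT cells (29.6 and 27.7).

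The transferases are short transcripts, with a median of 1174.5 bases against 2938 over all genes tested. With an edgeR fit corrected for the trend of each library along transcript length and GC content, none of the 10 was called against untreated LSKO, and 2 had an unadjusted p under 0.05 in each direction. Gstp1 then stood at 0.43 (SE 0.0897, adjusted p = 0.0141), Gstp2 at 0.30, Mgst1 at 0.12 and Mgst3 at 0.32. Gsto1 turned to -0.18. A real change that follows length would be taken out by the correction as well.

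**Figure D3:**
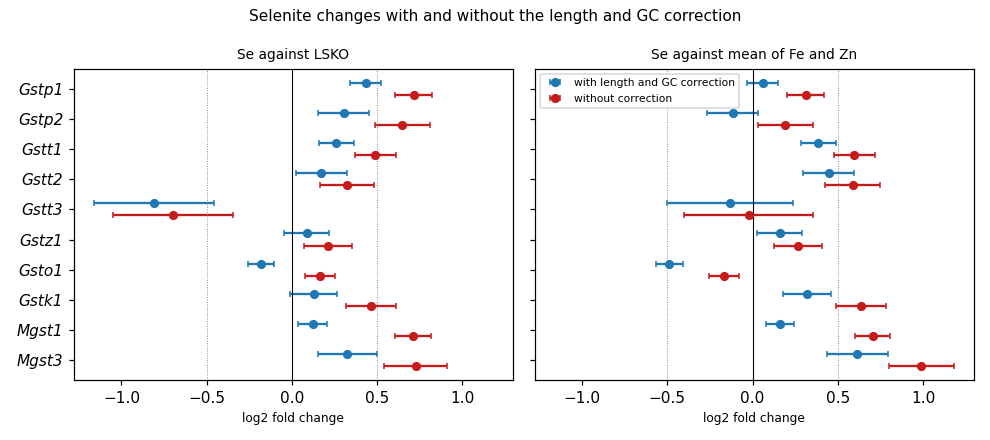
Log2 fold changes with selenite, with standard errors as bars, with and without the correction for transcript length and GC content, against untreated LSKO (left) and against the mean of iron and zinc (right). Corrected values lie to the left of the uncorrected ones for all 10 genes. Mgst1 is at 0.12 and 0.16 and Mgst3 at 0.32 and 0.61.

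Selenite against the mean of iron and zinc compares libraries alike in unaligned and low-quality reads. The selenite library still stood apart in its share of reads with no unique alignment, 7.29% against 5.46% with iron and 6.24% with zinc, and in its TMM factor, 0.867 against 1.01 with iron and 0.969 with zinc. Gstt1, Gstt2, Gstk1, Mgst1 and Mgst3 were higher with selenite, by between 1.50-fold and 1.99-fold. These 5 of 10 members were called higher and none lower, against 7.53% of all genes called higher and 8.35% called lower. In the lower direction 0 members had an unadjusted p under 0.05 and DESeq2 called 0, while it called 3 of the 5 higher, without Gstt2 (0.57, adjusted p = 0.126) and Gstk1 (0.62, adjusted p = 0.0921). A fit to the iron, selenite, zinc and WT libraries alone called 5 as well. Of the markers, 4 of 8 hepatocyte genes, 3 of 8 macrophage genes, 2 of 3 cholangiocyte genes, 2 of 7 endothelial genes and 3 of 8 stellate and fibroblast genes tested were also called higher with selenite, and Tat was called lower. Their part in the result was not tested.

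The rise was largest in Mgst3, at 0.99 (SE 0.189, adjusted p = 0.00522), and Mgst1 followed at 0.70 (SE 0.104, adjusted p = 0.002). Gstk1, the mitochondrial and peroxisomal enzyme, had 19.5 normalized CPM with selenite, against 11.2 with iron and 14.2 with zinc (0.64, SE 0.147, adjusted p = 0.0117). Gstk1 in the other libraries was 15.0 with manganese, 14.1 and 14.3 in untreated LSKO cells and 11.1 and 11.0 in WT cells, where iron lay beside WT. Gstt1, whose enzyme acts on small halogenated compounds such as dichloromethane, had 65.0 with selenite, against 30.9 with iron and 59.9 with zinc (0.60, SE 0.120, adjusted p = 0.00666). For Gstt1 the gap to zinc was thus small and the gap to iron large. Gstt2, a theta enzyme known in humans to act on sulphate esters, had 21.3 with selenite, against 14.0 with iron and 14.3 with zinc (0.59, SE 0.162, adjusted p = 0.0253). The other Gstt2 levels were 13.7 with manganese, 15.2 and 18.7 in untreated LSKO cells and 14.0 and 13.8 in WT cells, all below selenite. The Gstt2 call was lost without WT replicate 1 or 2, at 0.55 and adjusted p of 0.0667 and 0.0658. The pi genes were not called here, with Gstp1 at 0.31 (SE 0.109, adjusted p = 0.0611) and Gstp2 at 0.19. With the length and GC correction none of the 10 was called, and 4 had an unadjusted p under 0.05 upward and 1 downward. Mgst3 then stood at 0.61 (adjusted p = 0.0518). Gsto1, the 1 downward, stood at -0.49 (adjusted p = 0.0078) and missed only the fold threshold.

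Gsto1 and Gstp2 were higher with zinc than in untreated LSKO cells. These 2 of 10 members were called higher, where 2.9% of all genes tested were. None was called lower by edgeR or DESeq2, 0 had an unadjusted p under 0.05, and 1.55% of all genes were called lower. Gsto1 encodes the omega enzyme, which reduces dehydroascorbate and methylated arsenic rather than joining glutathione to foreign compounds. It had 218 normalized CPM with zinc, against 142 and 145 in untreated LSKO cells, a log2 fold change of 0.60 (SE 0.0871, adjusted p = 0.00203). Manganese gave 164, iron 150 and selenite 161, and WT cells had 154 and 147, so that the other 7 libraries lay between 142 and 164 and zinc stood above them. Gstp2 rose by 0.66 (SE 0.161, adjusted p = 0.0406), which was lost without WT replicate 1 or 2 (adjusted p = 0.114 and 0.111) and without LSKO replicate 1 (0.50, adjusted p = 0.103). DESeq2 did not call Gstp2 (0.67, adjusted p = 0.227), and its 2 calls with zinc were Gsto1 and Gstp1. Gstp1 lay just under the fold threshold, at 0.499 (SE 0.108, adjusted p = 0.0234), and was called with DESeq2, median-ratio factors, no filter or filterByExpr, at 0.50 to 0.51. Without LSKO replicate 2 it was called at 0.64, as Gstt1 was at 0.51. With the length and GC correction Gsto1 stood at 0.49 (adjusted p = 0.0049) and Gstp2 at 0.52 (adjusted p = 0.0864), so that neither was called.

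Gstt1 was lower with iron than in untreated LSKO cells. It had 30.9 normalized CPM with iron, against 42.2 and 50.2 in untreated LSKO cells, a log2 fold change of -0.58 (SE 0.128, adjusted p = 0.0157). In the other libraries Gstt1 had 43.3 with manganese and 33.8 and 34.1 in WT cells, and iron and WT lay together at the low end. This 1 of 10 members was called lower, where 4.89% of all genes were. With an unadjusted p under 0.05, 5 of the 10 were lower and 1 higher, where 14.1% of all genes were in either direction alone. None was called higher by edgeR or DESeq2, and 3.8% of all genes were called higher. The Gstt1 call was lost without WT replicate 1 or 2 (-0.60, adjusted p = 0.0569 and 0.0548) and without LSKO replicate 2 (-0.46). It held with the length and GC correction, at -0.53. Gstt3 at -1.25 (adjusted p = 0.0561) and Mgst3 at -0.68 (adjusted p = 0.0589) missed the test. Gstt3 had 1.24 normalized CPM with iron, against 2.90 and 3.01 in untreated LSKO cells. Mgst3 was called without LSKO replicate 1 or 2, at -0.70 each. The sums of endothelial and stellate markers were also lowest in the iron library, and their part in these values was not tested.

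Gstz1 was lower with manganese than in untreated LSKO cells. Its enzyme is maleylacetoacetate isomerase of tyrosine breakdown, which also removes dichloroacetate. It had 33.6 normalized CPM with manganese, against 43.3 and 55.2 in untreated LSKO cells (-0.55, SE 0.146, adjusted p = 0.0199). This 1 of 10 members was called lower, where 15.1% of all genes were. None was called higher by edgeR or DESeq2, 0 had an unadjusted p under 0.05, and 2.09% of all genes were called higher. Gstz1 lies on chromosome 12 from 87147165 to 87164723, and 621 bases of its exons are overlapped on the other strand by Pomt2 or Gm6566. Pomt2 had a log2 fold change of -0.38 with manganese (adjusted p = 0.0973). Over all genes 2654 were called with manganese and 136 of the 9900 genes without such an overlap, so at Gstz1 manganese cannot be told apart from the different counting of its library. The call was also lost without WT replicate 1 or 2 (-0.55 each, adjusted p = 0.0743 and 0.0714), without LSKO replicate 2 (-0.35) and in a fit of manganese and untreated LSKO alone (-0.56, adjusted p = 0.0818).

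Untreated LSKO against WT asked what the loss of ZIP8 changed without added metal. Gstz1 rose, and the other members of this set did not pass both thresholds. This 1 of 10 members was called higher, where 6.74% of all genes were. None was called lower by edgeR or DESeq2, 1 had an unadjusted p under 0.05, and 3.7% of all genes were called lower. Gstz1 had 43.3 and 55.2 normalized CPM in untreated LSKO cells, against 29.6 and 27.7 in WT cells, a log2 fold change of 0.78 (SE 0.117, adjusted p = 0.00129). With iron, selenite and zinc it had 43.3, 57.2 and 52.2, so that all LSKO libraries lay above both WT libraries. Its call was lost without WT replicate 2, at 0.75 with an adjusted p of 0.0551. Mgst1 at 0.498 (SE 0.087, adjusted p = 0.00346) and Gstt1 at 0.45 (SE 0.101, adjusted p = 0.0134) passed the p threshold only, and both were called without LSKO replicate 1, at 0.62 and 0.59. Mgst1 was also called among genes without opposite-strand overlap, at 0.50 (adjusted p = 0.0044). Gstp1 had a log2 fold change of -0.22 (adjusted p = 0.132).

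The mean of iron, selenite and zinc against WT compares LSKO and WT libraries on 1 side of the read statistics, though genotype and metal cannot be told apart in it. Gstp2, Gstt1, Gstz1 and Mgst1 were higher in the treated LSKO cells. These 4 of 10 members were called higher, where 7.12% of all genes were. None was called lower by edgeR or DESeq2, 1 had an unadjusted p under 0.05, and 6.93% of all genes were called lower. Gstz1 stood at 0.82 (SE 0.109, adjusted p = 0.000545) and Mgst1 at 0.74 (SE 0.081, adjusted p = 0.00017). Gstp2 at 0.56 (adjusted p = 0.00857) lost its call without WT replicate 1 or 2, with adjusted p of 0.0775 and 0.0918. Gstt1 at 0.54 (adjusted p = 0.00234) lost it without WT replicate 2, with an adjusted p of 0.0587, and its iron library at 30.9 normalized CPM lay below both WT libraries. With the length and GC correction only Gstz1 was called, at 0.76. Of the markers, 7 of 8 hepatocyte genes and 3 of 8 macrophage genes were called higher, and 7 of 7 endothelial genes (median -1.48) and 5 of 8 stellate and fibroblast genes (median -1.28, with Reln called higher) and 2 of 3 cholangiocyte genes were called lower. Their part in the result was not tested.

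**Figure D4:**
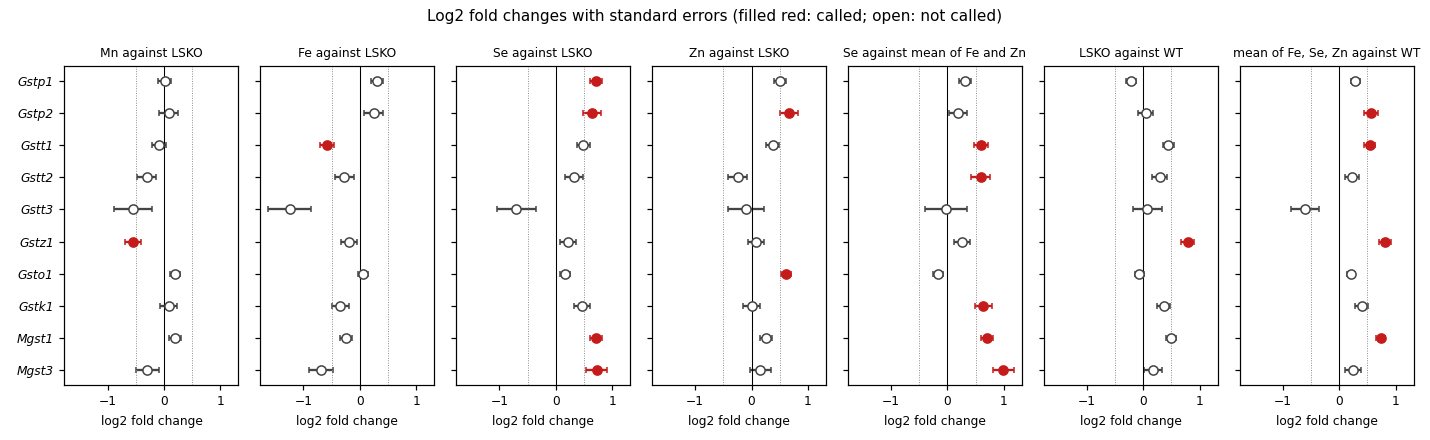
Log2 fold changes of the 10 genes in 7 comparisons, with standard errors as bars, filled red where called and open where not. Selenite against untreated LSKO has 4 called genes and selenite against the mean of iron and zinc has 5, while Gstt1 is to the left with iron (-0.58) and Gsto1 stands out with zinc (0.60).

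Gstz1 acts in a chain of liver enzymes that takes tyrosine apart, with Tat at the entry, Hpd and Hgd in the middle, then Gstz1, and Fah as the last step. These 5 genes were all called higher in untreated LSKO against WT, where 6.74% of all genes were. Hpd, hydroxyphenylpyruvate dioxygenase, had 25.2 and 39.7 normalized CPM in untreated LSKO cells, against 8.08 and 5.62 in WT cells (2.23, SE 0.218, adjusted p = 7.99e-05). Hgd at 2.11 and Tat at 1.41 also rose by more than Gstz1, and Fah rose by 0.78. Against WT, the mean of iron, selenite and zinc again had 5 of 5 called higher, where 7.12% of all genes were. Hpd stood at 2.34, Hgd at 2.27, Tat at 1.73 and Fah at 0.69. Hepatocyte markers moved with them, with 6 of 8 called higher in untreated LSKO against WT and 7 of 8 in the second comparison, and their part in the result was not tested. Tat is on both lists. Among metals, Tat, the glucocorticoid-induced aminotransferase, rose with iron (0.91, adjusted p = 0.00682).

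**Figure D5:**
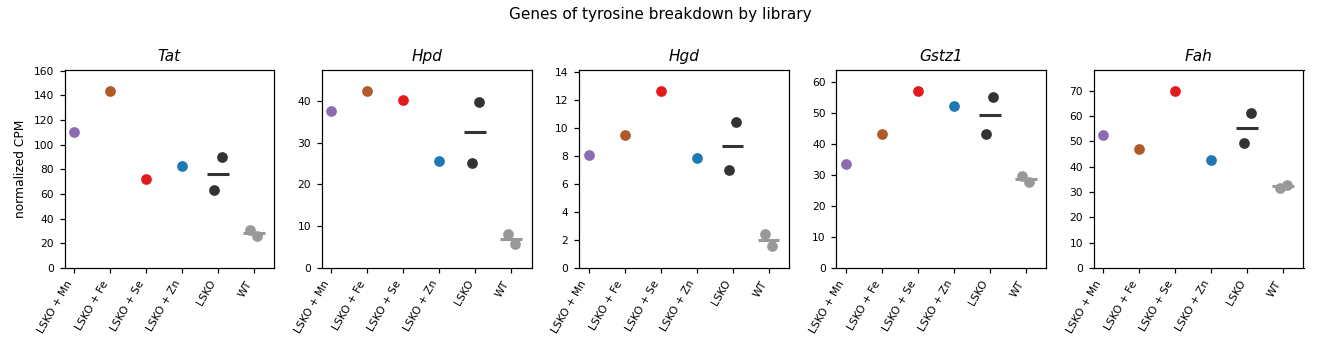
Normalized CPM of 5 genes of tyrosine breakdown in pathway order (linear axes from 0), 1 point per library, with a line at the mean of the groups of 2. Both WT libraries lie below all 6 LSKO libraries in every panel, with Hpd at 8.08 and 5.62 and Gstz1 at 29.6 and 27.7 in WT cells.

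The alpha and mu classes, the main transferases for foreign compounds in liver, are shown for comparison. With selenite against untreated LSKO, 6 of 6 alpha genes tested were called higher, with a median log2 fold change of 1.93, and 6 of 7 mu genes, with a median of 0.60, where 7.89% of all genes were. Of the mu genes 3 of 7 were called higher with zinc and 1 of 7 with iron or with manganese. Of all genes 2.9% were called higher with zinc, 3.8% with iron and 2.09% with manganese, whose library was counted differently. Gsta1 had 433 normalized CPM with selenite, against 88.5 and 87.8 in untreated LSKO cells (2.30). Zinc called the same 6 alpha genes higher, and iron and manganese each called 4 of the 6, with medians of 1.27 and 0.65. Gsta1 was 449 with zinc, 257 with iron and 137 with manganese. In WT cells it was 178 and 159, above untreated LSKO. Gm10639 followed the read statistics, with 0.264 and 0.808 normalized CPM in untreated LSKO cells and 0.804 with manganese. It had 16.0 with iron, 32.2 with selenite (5.84), 34.2 with zinc, and 9.64 and 11.8 in WT cells. Gsta3 did not, at 305 with manganese and 125 and 120 in WT cells. Iron, selenite and zinc against untreated LSKO, and untreated LSKO against WT, cross that split, so metal or genotype cannot be told apart from it here. In selenite against the mean of iron and zinc, 1 of 6 alpha genes was called higher (Gm3776, 0.61), as were 2 of 7 mu genes. Of the 10 members 5 were called higher there, and of all genes 7.53%. The difference between these shares was not tested. All 6 alpha genes had positive values there, with a median of 0.35, as had 5 of 7 mu genes, with a median of 0.26. Gsta1 (0.35), Gsta3 (0.36), Gsta4 (0.34) and Gstm1 (0.37) missed only the fold threshold. In untreated LSKO against WT, 5 of 7 mu genes were called higher and none lower. Of the 6 alpha genes, 2 were called higher and 3 lower there, where 6.74% of all genes were called higher and 3.7% lower. Some alpha-class genes are near copies of one another, and counts can be shared between those. Shared reads were not examined in this class.

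Of 9 further genes of the pi, theta, omega and membrane families and related proteins, 4 were tested. Gstp3 was higher in untreated LSKO than in WT (0.78, adjusted p = 0.000801) and with manganese than in untreated LSKO (0.57, adjusted p = 0.00717). It was also higher in the mean of iron, selenite and zinc against WT (0.75, adjusted p = 0.000568). The manganese value comes from the library whose counting differs. Ptges, the prostaglandin E synthase of the microsomal family, had 2.37 normalized CPM at most and was called in 4 of the 7 comparisons. It was called higher in untreated LSKO against WT (4.18) and in the 3 metals against WT (3.84), with 1 read in each WT library. It was also called higher with manganese (1.57), whose library was counted differently, and in selenite against the mean of iron and zinc (1.93). Of all genes, 6.74%, 7.12%, 2.09% and 7.53% were called higher in these 4 comparisons, in that order.

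The cosubstrate and the later steps have genes of their own. Of 10 supply genes 1 was called higher with selenite, where 7.89% of all genes were. It was the glutaredoxin Glrx, with 50.9 normalized CPM with selenite against 26.7 and 34.8 in untreated LSKO cells (0.72, adjusted p = 0.00606). Glrx was also called higher against the mean of iron and zinc, at 0.90, where 7.53% of all genes were. With iron Gclm, the modifier subunit of the first enzyme of glutathione synthesis, rose by 0.63 (adjusted p = 0.00122) together with Pgd. These 2 of 10 were called higher, where 3.8% of all genes were. With manganese Slc7a11, the cystine importer, and Cth were called higher and G6pdx lower, where 2.09% of all genes were called higher and 15.1% lower. Of 11 export and mercapturate genes tested, the canalicular exporter Abcc2 was called higher (0.56) and Ggt7 lower with manganese. All manganese calls here rest on the library whose counting differs. The exporter Abcc4 was called lower in untreated LSKO than in WT (-0.84) and with selenite than with the mean of iron and zinc (-0.75). It was 1 of 11 each time, where 3.7% and 8.35% of all genes were called lower.

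NRF2, encoded by Nfe2l2, is the regulator that induces many transferase genes under electrophile stress. Of 16 of its targets outside the transferases, 5 were called higher with iron, where 3.8% of all genes were, among them the haem oxygenase Hmox1 (1.30, adjusted p = 0.00017) and Srxn1 (0.77, adjusted p = 0.000975). In untreated LSKO against WT 4 were called lower, among them Hmox1 (-0.53), where 3.7% of all genes were. In the 3 metals against WT 3 were called higher and 3 lower, where 7.12% and 6.93% of all genes were. With selenite 1 target was called higher and 1 lower, where 7.89% and 9.67% of all genes were. The first was the quinone reductase Nqo1, at 16.6 normalized CPM against 7.74 and 8.27 in untreated LSKO cells (1.05, adjusted p = 0.00194). The second was Osgin1. With manganese 4 were called higher and G6pdx lower, where 2.09% of all genes were called higher and 15.1% lower. The manganese values here rest on the library whose counting differs. Gclm and Pgd, called with iron, and Slc7a11 and G6pdx, called with manganese, are on both this list and that of the supply genes. The Nfe2l2 transcript itself was lower with manganese (-0.66) and iron (-0.56) and was not called with selenite (0.24, adjusted p = 0.0723), while selenite against the mean of iron and zinc called it higher (0.61, adjusted p = 0.00179). Of 11 regulators of foreign-compound genes, 3 were called higher in untreated LSKO cells relative to WT, where 6.74% of all genes were. They were the nuclear receptors Nr1i2 (1.25) and Ppara (0.72) and the aryl hydrocarbon receptor Ahr (0.58). Nr1i3 had 0.465 normalized CPM with manganese, against 16.5 and 16.8 in untreated LSKO cells, a value that rests on the library whose counting differs.

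Log2 levels gave a Pearson r of 0.956 between Mgst1 and Gstk1 and of 0.726 between Mgst1 and Mgst3, and Gstp1 and Gstp2, which share reads, had 0.879. Gstp1 and Mgst1, the most abundant pair, had 0.501 over the 8 libraries, and Gstt3 had values between -0.333 and 0.201 with the other 9. The 3 protein-coding genes outside the set whose log2 level was most like that of Gstp1 were Gm10053 (r = 0.984), Chchd2 (0.984) and Srsf3 (0.975), out of 12430. These coefficients describe 8 points that share libraries and groups. The summed level of the 10 genes was 2573 normalized CPM with selenite, 2142 with zinc, 1748 with manganese and 1667 with iron, against 1526 and 1764 in untreated LSKO cells and 1533 and 1490 in WT cells.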

How the data were processed

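The authors deposited a raw count for every gene and library. The submitters' processing notes name Trimmomatic, HISAT2 and HTSeq as tools and GRCm38 as the build. Annotation release, strand setting and quality minimum of the counting were not given in the sources used here. GENCODE M21 matched all 55450 identifiers and gave symbols, coordinates, length and GC content. Reads outside genes, ambiguous, unaligned or not unique stayed out of library sizes and tests, with reads outside genes at 4.48% to 45.6% of a library.

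The 8 libraries were fitted together as 6 groups with edgeR 4.0.16 (R 4.3.3), using TMM scaling and its quasi-likelihood F-test. Genes entered when their counts over the libraries summed to 80 or more. Moderation added 8.53 to 2 residual degrees of freedom, and the spread of each single metal library is taken from the WT and LSKO pairs. Standard errors are the size of the log2 fold change over the square root of F, and p-values were adjusted after Benjamini and Hochberg across the 15468 genes. Counting error alone did not account for the differences between replicates (chi-square divided by its degrees of freedom, 6.64 in the WT pair and 15.9 in the LSKO pair).

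Alternatives were DESeq2 1.42.0, median-ratio size factors, no filter, filterByExpr, each replicate left out, a replicate block, genes without opposite-strand overlap, omission of the manganese library, and a length and GC correction by robust spline regression (MASS 7.3.60.0.1) entered as offsets. The crossed replicate block and the fits within libraries of like read statistics were added after seeing the data. The members, lists and the comparisons among libraries of like read statistics were chosen with earlier results of these data known. Genes named are all 10 members, Slc39a8, genes that share or overlap a member's sequence, up to 3 called genes of each list per comparison with the largest changes, and the 3 genes most like the most abundant member. Shared reads were judged from 150-base windows of GENCODE transcripts, and promoters are RefSeq's on GRCm38.p6. Gstt2 is not in the promoter table. No protein sequences were used. Some genes of the lists are not reported here.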

Additional observations from a re-analysis of the deposited data

Results flagged for a closer look

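Selenite, iron and zinc were each set against the same untreated LSKO libraries, and the direct test of selenite against the mean of iron and zinc found 5 transferases whose response differed. The log2 differences were 0.60 for Gstt1, 0.59 for Gstt2, 0.64 for Gstk1, 0.70 for Mgst1 and 0.99 for Mgst3, all higher with selenite, with edgeR adjusted p between 0.002 and 0.0253. Each rests on 1 library per metal. Gstt1 differed mainly from iron, at 65.0 normalized CPM with selenite against 30.9 with iron and 59.9 with zinc. With the length and GC correction the 5 differences were 0.39, 0.45, 0.32, 0.16 and 0.61, and none was called.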

How the results depend on the processing

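With DESeq2 the members called higher numbered 2 with selenite, and 3 with selenite against the mean of iron and zinc. With the length and GC correction they numbered 0 with selenite, 0 with zinc, 0 with selenite against the mean of iron and zinc, and 1 in iron, selenite and zinc against WT. Without a filter 3 members were called lower with iron. No member was called lower with manganese in the fit of libraries of like read statistics (0) or among genes without opposite-strand overlap (0), the second because Gstz1 is not among those genes. Leaving out 1 replicate gave 0 to 3 members higher in LSKO against WT, 0 to 1 lower with manganese, 0 to 2 lower with iron, 1 to 4 higher with zinc, and 2 to 4 higher in the 3 metals against WT. Slc39a8 in LSKO against WT missed the p threshold with DESeq2 (-1.50), the length and GC correction (-1.50) and genes without opposite-strand overlap (-1.52), and ranged from -2.88 to -0.78 with a replicate left out. The causes were not tested.

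Signs turned only for uncalled values. With the length and GC correction Gstp2 was -0.0015 in LSKO against WT and -0.12 in selenite against the mean of iron and zinc, and Gsto1 was -0.18 with selenite. Gstp1 was -0.064 with manganese without opposite-strand genes. Gstk1 with zinc was 0.0023 with DESeq2, 0.0022 with median-ratio factors, 0.0097 without a filter and 0.0049 with filterByExpr. With a replicate left out the ranges crossing 0 were -0.14 to 0.23 for Gstp2 and -0.12 to 0.32 for Gstt3 in LSKO against WT, -0.11 to 0.15 for Gstp1, -0.081 to 0.29 for Gstp2 and -0.22 to 0.049 for Gstt1 with manganese, -0.00031 to 0.36 for Gstz1 with selenite, and -0.084 to 0.28 for Gstz1 and -0.014 to 0.020 for Gstk1 with zinc.

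Over all genes, 1615 were called in LSKO against WT, against 1039 with DESeq2 and 715 to 2128 with a replicate left out. Selenite called 2717, against 1649 with DESeq2 and 1380 with the length and GC correction. Selenite against the mean of iron and zinc called 2456, against 1527, 1089 and, without opposite-strand genes, 1519. Iron called 1345 (738 with DESeq2), zinc 688 (413 with DESeq2, 1164 without a filter), manganese 2654 (136 without opposite-strand genes), and the 3 metals against WT 2173 (1395 with DESeq2, 1016 without WT replicate 2).

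Only untreated libraries carry replicate numbers, whose deviations had a correlation of -0.123. This value shows no pairing by number, and with 2 libraries per group it cannot exclude one. With the replicate block Gstz1 in LSKO against WT was 0.77, 1 member was called and 1754 genes were, and with the crossed pairing 1 member and 1794 genes. Precision is limited by the single metal libraries and, for Gstt3, by its 25 to 82 reads a library.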
